A study of Mus musculus with 12 samples.

Results

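MHC class II presentation was followed in mouse bone-marrow-derived macrophages (BMDM) through 7 genes chosen by name, H2-Aa, H2-Ab1, H2-Eb1, H2-DMa, H2-DMb1, Cd74 and Ciita, out of 56980 features in the deposited table. The choice was made with earlier results of these data known, so shares over all genes set beside their counts are a description and not a test. All 7 passed the filter on low counts and were among the 12052 genes tested. Marrow from wild-type (WT) and Trem2 KO mice was grown into macrophages for 7 days with 50 ng/mL of the growth factor M-CSF, frozen, thawed and exposed for 22 hours to bafilomycin A1 (BafA1), which blocks the proton pump that acidifies lysosomes, or to its vehicle DMSO. The 4 groups of 3 libraries were Trem2 KO with 25 nM BafA1, Trem2 KO with DMSO, WT with 25 nM BafA1 and WT with DMSO. Bones of 3 mice were pooled for each biological replicate, so a replicate is a pool and not an animal. The labels give neither strain nor age of the mice, nor the part of Trem2 that was deleted. The study's title sets the question as how WT and Trem2 KO cells respond in their transcripts when lysosomes lose their acidity.

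MHC class II molecules show peptides from swallowed proteins to CD4 T cells. An alpha and a beta chain (H2-Aa with H2-Ab1 for the A molecule, and H2-Eb1 as the beta chain of the E molecule) assemble in the endoplasmic reticulum on the invariant chain encoded by Cd74. The invariant chain is cut up by proteases in acidic endosomes and lysosomes, and the peptide exchanger made of H2-DMa and H2-DMb1 then swaps its last fragment for an antigen peptide. CIITA, the product of Ciita, does not bind DNA itself. It is recruited to a complex of RFX, CREB and NF-Y factors on the X and Y boxes of class II promoters, and in macrophages its gene is induced by interferon gamma, with IRF1 among the factors that act on it.

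The X and Y boxes are known as control elements of class II chain promoters, and the windows in which their letters were found are shown for that reason. RefSeq windows (build GRCm38.p6, 250 bases before to 50 bases after each gene's start) were matched for 4 of the 7 genes, H2-Aa, H2-Eb1, H2-DMa and H2-DMb1. Capitals mark the core of the X box, searched as GNAAC, followed on the same strand by the Y box, searched as TGATTGG, with 20 to 50 bases from start to start so that the 2 do not overlap. These letters were chosen after the sequences had been seen. The windows are printed 5′ to 3′ on the gene's strand, and lie at chr17:34287774-34288073 (minus strand) for H2-Aa, chr17:34305617-34305916 (plus strand) for H2-Eb1 and chr17:34152941-34153240 (plus strand) for H2-DMb1.
H2-Aa: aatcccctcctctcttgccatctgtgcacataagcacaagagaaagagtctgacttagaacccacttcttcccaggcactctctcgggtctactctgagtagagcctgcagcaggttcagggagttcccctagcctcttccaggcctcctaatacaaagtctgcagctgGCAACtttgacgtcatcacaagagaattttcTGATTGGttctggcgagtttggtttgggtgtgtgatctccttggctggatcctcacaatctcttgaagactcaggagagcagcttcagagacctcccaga
H2-Eb1: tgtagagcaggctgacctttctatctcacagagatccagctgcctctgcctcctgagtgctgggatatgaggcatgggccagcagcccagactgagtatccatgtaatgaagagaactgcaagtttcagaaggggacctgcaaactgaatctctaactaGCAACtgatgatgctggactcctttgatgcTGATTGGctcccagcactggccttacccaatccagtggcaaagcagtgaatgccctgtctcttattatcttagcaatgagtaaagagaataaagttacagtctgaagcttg
H2-DMb1: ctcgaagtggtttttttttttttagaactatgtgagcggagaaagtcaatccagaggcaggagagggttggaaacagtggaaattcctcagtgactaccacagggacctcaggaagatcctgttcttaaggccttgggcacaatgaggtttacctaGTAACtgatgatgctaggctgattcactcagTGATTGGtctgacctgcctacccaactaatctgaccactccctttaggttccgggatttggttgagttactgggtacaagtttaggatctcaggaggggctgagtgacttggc

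The X core began 31 bases before the Y box in H2-Aa, 30 in H2-Eb1 and 31 in H2-DMb1. The Y box began 50, 61 and 63 bases before the gene start in H2-Aa, H2-Eb1 and H2-DMb1, in that order. Neither of the 2 windows of H2-DMa holds the pair. The best match to a longer X box consensus with 9 fixed letters, anywhere on the gene's strand of the window had 4 mismatches in H2-Aa, 1 in H2-Eb1 and 0 in H2-DMb1, against 2 and 3 in the windows of H2-DMa. Of all windows 0.158% had 0 mismatches, 3.11% at most 1, 33% at most 2 and 94.2% at most 3, so the matches of H2-Aa and H2-DMa are no closer than those of many other windows. This consensus was also chosen after the sequences had been seen. Over all 32851 promoter windows, searched on both strands, 7.82% hold TGATTGG and 0.852% hold the X core and Y box in this layout. A match of letters is a description of the sequence and not a measurement of binding.

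Libraries held 4407466 to 7074860 estimated counts, made with a 3′ kit in which a transcript is counted at its end whatever its length, and levels are given as CPM, counts scaled to library size. The 5 H2 genes lie on chromosome 17, as does Trem2, while Ciita lies on chromosome 16 and Cd74 on chromosome 18. The 7 genes together took 0.00867% to 0.0229% of a library, so they were low in these cells throughout. Trem2 itself, the deleted receptor, was at 149, 147 and 182 CPM in Trem2 KO cells with BafA1 and 219, 199 and 217 CPM in Trem2 KO cells with DMSO, against 401, 400 and 401 CPM in WT cells with BafA1 and 619, 570 and 575 CPM in WT cells with DMSO. Every Trem2 KO library was below every WT library, and a 3′ tag can remain where the deletion lies elsewhere in the gene. All 8 macrophage markers were detected in each of the 4 groups, with summed levels of 5375 to 8760 CPM across the 12 libraries. Most of the sum was Lyz2, with group means from 3748 CPM in WT cells with BafA1 to 5299 CPM in Trem2 KO cells with DMSO. Fcgr1 averaged 5.08 CPM in Trem2 KO and 3.03 CPM in WT cells with BafA1. In whole cultures, fewer cells of a type and less RNA per cell cannot be told apart.

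With DMSO, the class II chains and Cd74 were higher in Trem2 KO than in WT cells. Of the 7 genes, 4 rose (H2-Aa, H2-Ab1, H2-Eb1 and Cd74), 0 fell and 3 did not pass, where 13.8% of all genes tested were higher and 30.3% were called in either direction (edgeR quasi-likelihood test, Benjamini-Hochberg adjusted p under 0.05). The median log2 fold change was 0.92 over the 7 genes and -0.0073 over all genes tested. In Trem2 KO cells BafA1 lowered 5 of the 7 (H2-Aa, H2-Ab1, H2-Eb1, H2-DMa and Cd74) relative to DMSO and raised 0, where 20.7% of all genes were lower, 19.8% higher and 40.6% either. The median was -1.02 over the 7 genes and 0.0019 over all genes. In WT cells BafA1 lowered 1 of the 7, H2-DMa, where 25.3% of all genes were lower and 46.9% were called in either direction, and the median was 0.07 over the 7 genes and -0.04 over all. With BafA1, 1 of the 7, H2-DMb1, was lower in Trem2 KO than in WT cells, where 14.2% of all genes were lower and 26.7% were called in either direction, and the median was -0.02 over the 7 genes and 0.01 over all. The response to BafA1 itself differed between Trem2 KO and WT cells for 3 genes, H2-Aa, H2-Ab1 and H2-Eb1, each by a negative difference of log2 responses, where 3.93% of all genes had a negative, 4.88% a positive and 8.81% any difference that passed. The comparisons share groups, and the Trem2 KO libraries with DMSO enter 3 of them, so a gene's results in these 3 are not independent.

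**Figure D1:**
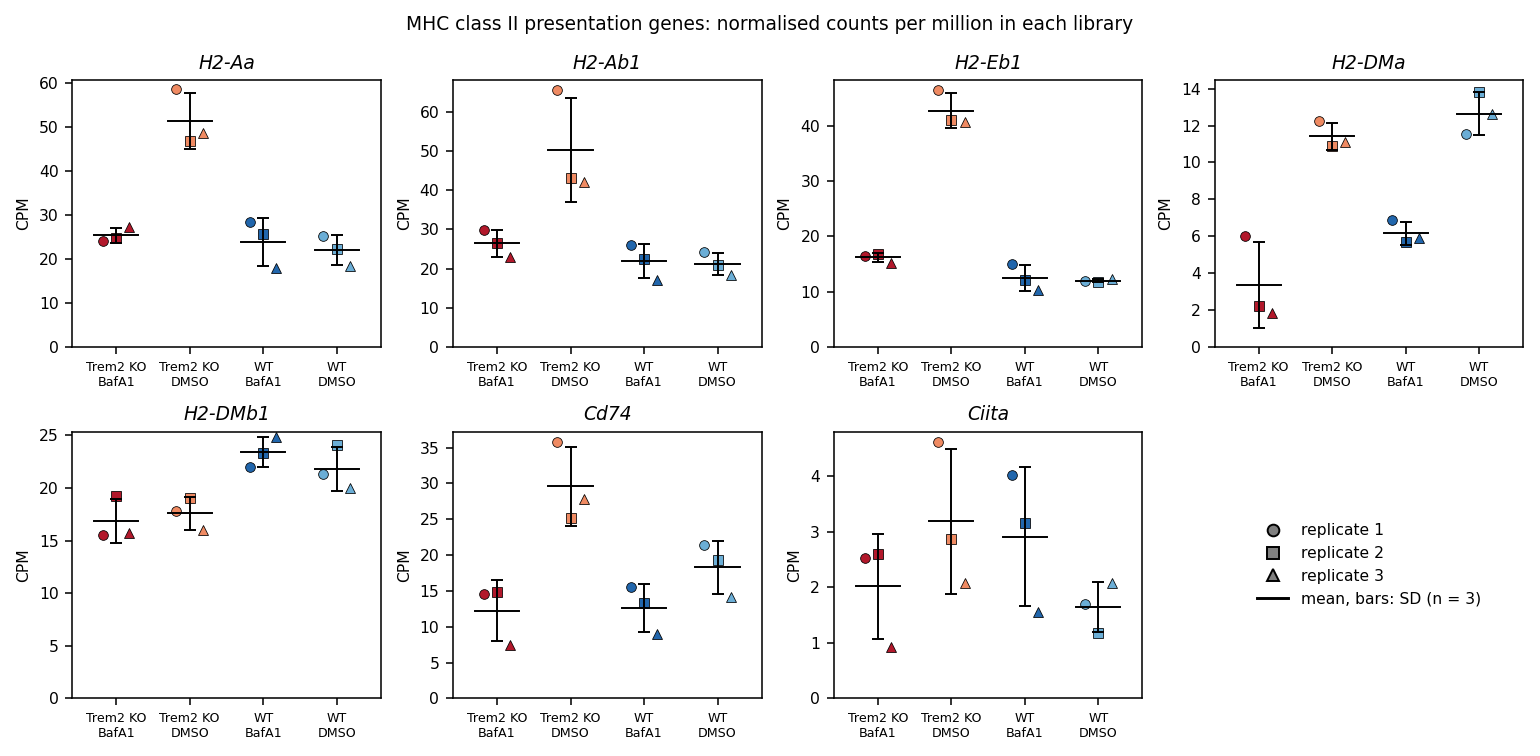
CPM of each of the 7 genes in each library (vertical axis, from 0), with the mean and SD of 3 libraries for Trem2 KO with BafA1, Trem2 KO with DMSO, WT with BafA1 and WT with DMSO, left to right. H2-Aa, H2-Ab1 and H2-Eb1 stand highest in Trem2 KO cells with DMSO, H2-DMa is lower with BafA1 in both genotypes, and H2-DMb1 stays between 15.6 and 24.8 CPM in the 12 libraries.

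H2-Eb1, the E beta chain, had the largest log2 fold change of the 7 genes between Trem2 KO and WT cells with DMSO. It was at 16.5, 16.8 and 15.3 CPM in Trem2 KO cells with BafA1, 46.4, 41.0 and 40.7 CPM in Trem2 KO cells with DMSO, 14.9, 12.2 and 10.3 CPM in WT cells with BafA1 and 11.96, 11.8 and 12.3 CPM in WT cells with DMSO. The 3 Trem2 KO libraries with DMSO stood apart above the other 9. With DMSO it was 3.54-fold higher in Trem2 KO than in WT cells (log2 fold change 1.83, SE 0.13, edgeR adjusted p = 6.4e-10). BafA1 lowered it in Trem2 KO cells (log2 fold change -1.39, SE 0.13, edgeR adjusted p = 1.2e-08). In WT cells the BafA1 and DMSO libraries overlapped (log2 fold change 0.05, 95% interval -0.26 to 0.36, edgeR adjusted p = 0.81). The log2 response to BafA1 was lower by 1.44 in Trem2 KO than in WT cells (difference -1.44, SE 0.20, edgeR adjusted p = 8.7e-05). With BafA1 present, the Trem2 KO libraries were still all above the WT libraries, and the difference did not pass (log2 fold change 0.38, 95% interval 0.08 to 0.68, edgeR adjusted p = 0.055). Of the 7 genes 2 had groups that do not overlap in this comparison, H2-Eb1 and H2-DMb1, as had 40.9% of all genes tested.

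H2-Aa, the A alpha chain, was at 24.1, 24.8 and 27.3 CPM in Trem2 KO cells with BafA1, 58.7, 47.0 and 48.6 CPM in Trem2 KO cells with DMSO, 28.4, 25.7 and 17.9 CPM in WT cells with BafA1 and 25.2, 22.4 and 18.4 CPM in WT cells with DMSO. The Trem2 KO cells with DMSO were again above the other 3 groups, which overlapped one another. With DMSO the gene was 2.35-fold higher in Trem2 KO than in WT cells (log2 fold change 1.24, SE 0.15, edgeR adjusted p = 7.5e-07). BafA1 lowered it in Trem2 KO cells (log2 fold change -1.02, SE 0.14, edgeR adjusted p = 5.4e-06) and gave a log2 fold change of 0.14 in WT cells (95% interval -0.18 to 0.46, edgeR adjusted p = 0.47). The difference between these log2 responses was -1.16 (SE 0.21, edgeR adjusted p = 0.0012). With BafA1, Trem2 KO and WT cells gave a log2 fold change of 0.07 with a 95% interval of -0.24 to 0.39, which leaves out a difference as large as that with DMSO.

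H2-Ab1, the A beta chain, followed its alpha partner. It was at 29.9, 26.4 and 22.9 CPM in Trem2 KO cells with BafA1, 65.6, 43.1 and 42.1 CPM in Trem2 KO cells with DMSO, 26.0, 22.6 and 17.2 CPM in WT cells with BafA1 and 24.1, 20.9 and 18.4 CPM in WT cells with DMSO. The Trem2 KO libraries with DMSO were all above the others, with replicate 1 the highest. With DMSO it was 2.39-fold higher in Trem2 KO than in WT cells (log2 fold change 1.26, SE 0.17, edgeR adjusted p = 4.1e-06). BafA1 lowered it in Trem2 KO cells (log2 fold change -0.91, SE 0.16, edgeR adjusted p = 0.00011). In WT cells BafA1 gave a log2 fold change of 0.07 (95% interval -0.30 to 0.44, edgeR adjusted p = 0.79). The log2 responses differed by -0.98 (SE 0.24, edgeR adjusted p = 0.013), a call that is lost without WT BafA1 replicate 1 (-0.85, edgeR adjusted p = 0.052). With BafA1, the log2 fold change of Trem2 KO over WT cells was 0.28 (95% interval -0.08 to 0.64, edgeR adjusted p = 0.25).

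The ratio of H2-Ab1 to H2-Aa within a library was 1.05 ± 0.20 in Trem2 KO cells with BafA1, 0.97 ± 0.13 in Trem2 KO cells with DMSO, 0.92 ± 0.042 in WT cells with BafA1 and 0.96 ± 0.035 in WT cells with DMSO (SD, n = 3 each). The 2 chains of the A molecule thus kept ratios that overlap between the groups in each of the 4 comparisons. The ratio of H2-Eb1 to H2-Aa was 0.64 ± 0.071 in Trem2 KO cells with BafA1, 0.84 ± 0.042 in Trem2 KO cells with DMSO, 0.52 ± 0.050 in WT cells with BafA1 and 0.56 ± 0.10 in WT cells with DMSO (SD, n = 3 each). Trem2 KO and WT libraries with DMSO did not overlap in it, nor did BafA1 and DMSO libraries of Trem2 KO cells (2-sided exact permutation p = 0.1 for each, the smallest that 3 against 3 allows). Across the 12 libraries the log2 CPM of H2-Aa correlated with that of H2-Ab1 at r = 0.96 and with that of H2-Eb1 at 0.96, and H2-Ab1 with H2-Eb1 at 0.95. These correlations describe 12 libraries of 4 conditions, in which the Trem2 KO libraries with DMSO stood above the rest for each of the 3 genes.

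Cd74, the invariant chain that is both chaperone and targeting signal for the new dimers, was at 14.6, 14.8 and 7.41 CPM in Trem2 KO cells with BafA1, 35.8, 25.2 and 27.8 CPM in Trem2 KO cells with DMSO, 15.6, 13.4 and 9.04 CPM in WT cells with BafA1 and 21.4, 19.4 and 14.1 CPM in WT cells with DMSO. Trem2 KO cells with DMSO were highest, and the other 3 groups overlapped. With DMSO it was 1.63-fold higher in Trem2 KO than in WT cells (log2 fold change 0.71, SE 0.20, edgeR adjusted p = 0.011). That call is lost without WT DMSO replicate 3 (edgeR adjusted p = 0.068) or without Trem2 KO DMSO replicate 1 (edgeR adjusted p = 0.07). BafA1 lowered it in Trem2 KO cells (log2 fold change -1.23, SE 0.22, edgeR adjusted p = 8.1e-05). In WT cells the log2 fold change was -0.51 (95% interval -0.96 to -0.05, edgeR adjusted p = 0.063) with overlapping libraries, and it passes with a replicate block (edgeR adjusted p = 0.012). The difference of the log2 responses was -0.72 (95% interval -1.36 to -0.08, edgeR adjusted p = 0.15). With BafA1 the log2 fold change of Trem2 KO over WT cells was -0.02 (95% interval -0.50 to 0.47, edgeR adjusted p = 0.97).

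Cd74 did not keep a fixed ratio to the alpha chain. Its ratio to H2-Aa was 0.49 ± 0.19 in Trem2 KO cells with BafA1, 0.57 ± 0.036 in Trem2 KO cells with DMSO, 0.53 ± 0.023 in WT cells with BafA1 and 0.83 ± 0.052 in WT cells with DMSO (SD, n = 3 each). WT libraries with DMSO stood above both the WT libraries with BafA1 and the Trem2 KO libraries with DMSO, with no overlap (2-sided exact permutation p = 0.1 for each comparison, the smallest possible). Its log2 CPM correlated with H2-Aa at r = 0.75, with H2-Ab1 at 0.79, with H2-Eb1 at 0.73 and with H2-DMa at 0.71 over the 12 libraries.

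**Figure D2:**
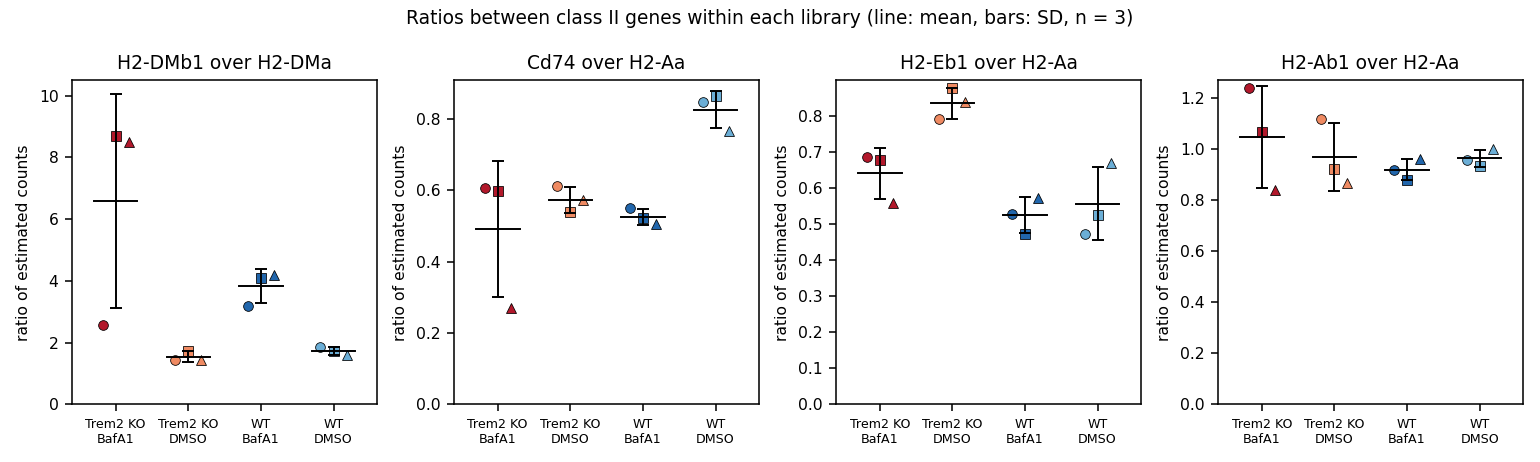
Ratios of estimated counts between pairs of class II genes within each library (vertical axis, from 0), with circles, squares and triangles for replicates 1, 2 and 3, a line for the mean and bars for the SD of 3 libraries. H2-DMb1 over H2-DMa is higher with BafA1 in both genotypes, Cd74 over H2-Aa is highest in WT cells with DMSO, and H2-Ab1 over H2-Aa overlaps between all 4 groups.

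The peptide exchanger's 2 chains moved apart. H2-DMa, its alpha chain, was at 6.03, 2.20 and 1.85 CPM in Trem2 KO cells with BafA1, 12.2, 10.9 and 11.1 CPM in Trem2 KO cells with DMSO, 6.88, 5.71 and 5.91 CPM in WT cells with BafA1 and 11.5, 13.8 and 12.6 CPM in WT cells with DMSO. The BafA1 libraries were below the DMSO libraries in both genotypes. BafA1 lowered it in Trem2 KO cells (log2 fold change -1.63, SE 0.28, edgeR adjusted p = 5.7e-05) and in WT cells (log2 fold change -1.04, SE 0.24, edgeR adjusted p = 0.001). The difference of these responses did not pass (-0.59, 95% interval -1.36 to 0.19, edgeR adjusted p = 0.36). Trem2 KO BafA1 replicate 1 was the highest of its group, with 43 estimated counts against 11 and 8, and without that library the difference is -1.44 (edgeR adjusted p = 0.012). Trem2 KO against WT cells gave log2 fold changes of -0.74 with BafA1 (95% interval -1.35 to -0.13, edgeR adjusted p = 0.066) and -0.16 with DMSO (95% interval -0.63 to 0.32, edgeR adjusted p = 0.66). The comparison with BafA1 becomes -1.59 without that same library (edgeR adjusted p = 0.00047).

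H2-DMb1, the beta chain, was at 15.6, 19.2 and 15.7 CPM in Trem2 KO cells with BafA1, 17.8, 19.1 and 16.0 CPM in Trem2 KO cells with DMSO, 22.0, 23.3 and 24.8 CPM in WT cells with BafA1 and 21.4, 24.1 and 20.0 CPM in WT cells with DMSO. It was lower in Trem2 KO than in WT cells in either treatment, with no overlap. The difference passed with BafA1 (log2 fold change -0.48, SE 0.13, edgeR adjusted p = 0.01) and not with DMSO (-0.30, 95% interval -0.58 to -0.02, edgeR adjusted p = 0.099). The call with BafA1 is lost without Trem2 KO BafA1 replicate 1 (-0.41, edgeR adjusted p = 0.052). BafA1 against DMSO gave log2 fold changes of -0.07 in Trem2 KO cells (95% interval -0.37 to 0.22) and 0.10 in WT cells (95% interval -0.16 to 0.36). The gene has a close copy, H2-DMb2, so reads may be split between them, and H2-DMb2 had 10, 13, 5 and 13 summed counts in Trem2 KO BafA1, Trem2 KO DMSO, WT BafA1 and WT DMSO libraries.

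The ratio of H2-DMb1 to H2-DMa was 2.58, 8.69 and 8.50 in Trem2 KO cells with BafA1 and 1.45, 1.74 and 1.44 in Trem2 KO cells with DMSO. It was 3.20, 4.08 and 4.21 in WT cells with BafA1 and 1.85, 1.74 and 1.59 in WT cells with DMSO. Every BafA1 library had a higher ratio than every DMSO library of its genotype (2-sided exact permutation p = 0.1 in each, the smallest possible). H2-DMa correlated with H2-DMb1 at r = 0.24 and with the 3 chains at 0.26 to 0.27 over the 12 libraries, and H2-DMb1 with the chains at -0.58 to -0.49. The values of H2-DMb1 in the 4 groups ran in another order than those of H2-Aa and H2-Eb1. Any link between the promoter letters printed above and these levels was not tested.

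Ciita, the class II transactivator, was near the lower end of detection. It was at 2.52, 2.60 and 0.93 CPM in Trem2 KO cells with BafA1, 4.62, 2.86 and 2.08 CPM in Trem2 KO cells with DMSO, 4.03, 3.16 and 1.56 CPM in WT cells with BafA1 and 1.71, 1.18 and 2.08 CPM in WT cells with DMSO, which is 4 to 24 estimated counts a library. Neighbouring groups in the order of its means overlapped, and it passed in 0 of the 5 contrasts. Its log2 fold changes were -0.59 for BafA1 in Trem2 KO cells (95% interval -1.48 to 0.30), 0.81 for BafA1 in WT cells (-0.08 to 1.70), 0.92 for Trem2 KO over WT cells with DMSO (0.0027 to 1.84) and -0.48 for Trem2 KO over WT cells with BafA1 (-1.34 to 0.39). The difference of its responses was -1.40 (95% interval -2.66 to -0.14, edgeR adjusted p = 0.16). The interval for Trem2 KO over WT cells with DMSO includes the log2 fold changes of the 3 chains there, and it also includes values close to 0.

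**Figure D3:**
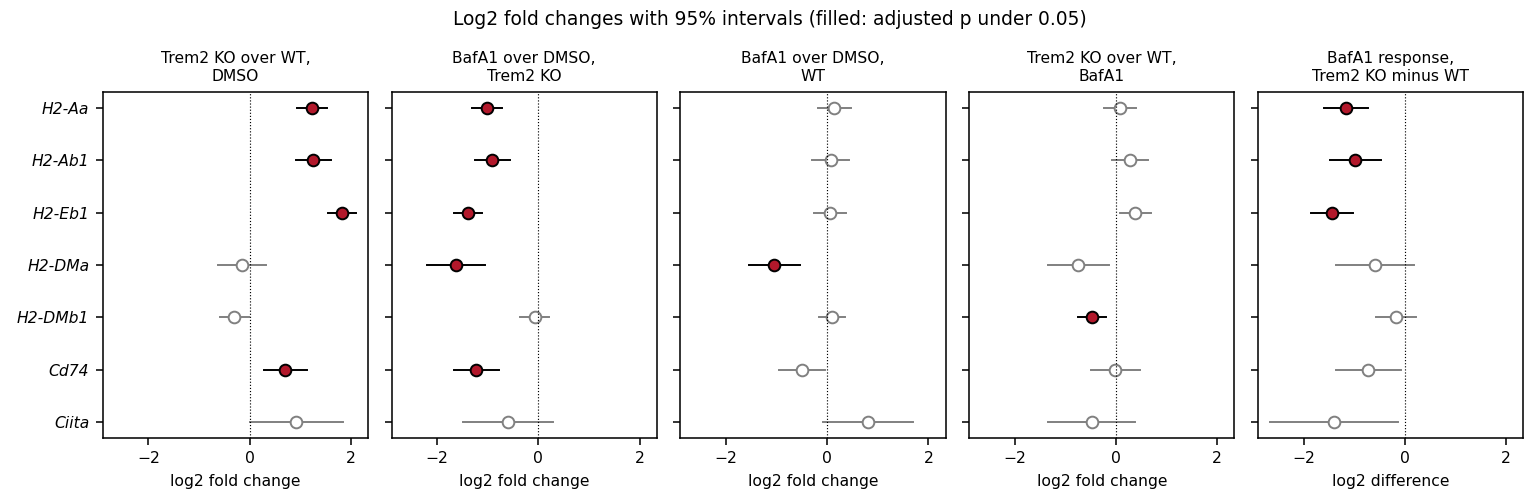
Log2 fold changes of the 7 genes (horizontal axis) with 95% intervals for Trem2 KO against WT with DMSO, BafA1 against DMSO in Trem2 KO and in WT cells, Trem2 KO against WT with BafA1, and the difference of the BafA1 responses, with filled points for edgeR adjusted p under 0.05. H2-Eb1 reaches 1.83 for Trem2 KO against WT with DMSO and -1.39 for BafA1 in Trem2 KO cells, while 1 point, H2-DMa, is filled for BafA1 in WT cells.

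Ordered by mean level, the 3 chains ran Trem2 KO with DMSO, Trem2 KO with BafA1, WT with BafA1, WT with DMSO. For H2-Aa and H2-Ab1 only the first step had groups that do not overlap, and for H2-Eb1 the first step and the next. Cd74 ran Trem2 KO with DMSO, WT with DMSO, WT with BafA1, Trem2 KO with BafA1, and only the first step had groups that do not overlap. H2-DMa had both DMSO groups above both BafA1 groups, and H2-DMb1 both WT groups above both Trem2 KO groups, with overlap inside each pair of groups. With DMSO, 6 of the 7 genes, H2-DMa being the exception, had Trem2 KO and WT libraries that do not overlap, as had 41.9% of all genes. For Ciita this is nearly a tie at low counts, 2.083 CPM in Trem2 KO replicate 3 against 2.077 CPM in WT replicate 3. For BafA1 in Trem2 KO cells 5 of the 7 had groups that do not overlap, against 47.7% of all genes, and for BafA1 in WT cells 1 of the 7, against 56.0%.

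Class II genes outside the 7 were scarce. H2-Eb2, a second E beta gene, was the 1 of 5 that passed the filter, at 1.28 ± 1.01 CPM in Trem2 KO cells with BafA1, 2.21 ± 0.23 CPM in Trem2 KO cells with DMSO, 0.56 ± 0.22 CPM in WT cells with BafA1 and 0.93 ± 0.12 CPM in WT cells with DMSO (SD, n = 3 each). Trem2 KO over WT cells with DMSO gave a log2 fold change of 1.25 for it (edgeR adjusted p = 0.06). H2-Oa and H2-Ob, which form the DO brake on the peptide exchanger in B cells, had 1 and 3 summed counts in the Trem2 KO BafA1 libraries, 11 and 12 in the Trem2 KO DMSO libraries, 1 and 4 in the WT BafA1 libraries, and 0 and 2 in the WT DMSO libraries. H2-Ea, the alpha chain that pairs with the H2-Eb1 product, had 0 counts of 66123034, which allows up to 0.0454 CPM by counting error. As background, mice of the H2 b haplotype do not transcribe H2-Ea, and the haplotype of these mice is not given in the labels.

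Of the 9 genes for endosomal proteolysis and class II turnover, BafA1 raised 3 and lowered 3 in Trem2 KO cells, and raised 3 and lowered 3 in WT cells. Among all genes tested, it raised 19.8% and lowered 20.7% in Trem2 KO cells, and raised 21.6% and lowered 25.3% in WT cells. Legumain (Lgmn), an asparagine endoprotease that starts the cutting of the invariant chain, was at 283 ± 16.4 CPM in Trem2 KO cells with BafA1 and 547 ± 33.1 CPM in Trem2 KO cells with DMSO. It was at 198 ± 16.7 CPM in WT cells with BafA1 and 405 ± 11.9 CPM in WT cells with DMSO (SD, n = 3 each). BafA1 lowered it by 0.95 in Trem2 KO and by 1.03 in WT cells on the log2 scale (log2 fold changes -0.95 and -1.03, edgeR adjusted p = 1.2e-09 and 2.1e-10). Marchf1, a ubiquitin ligase that removes class II molecules from the cell surface, also fell with BafA1 (-1.28 in Trem2 KO cells and -1.92 in WT cells, edgeR adjusted p = 6e-06 and 2.7e-08). Its relative Marchf8 rose (0.87 in Trem2 KO cells and 0.72 in WT cells, edgeR adjusted p = 4.9e-09 and 4.2e-08), as did the aspartic protease Ctsd (0.44 and 0.56, edgeR adjusted p = 3.2e-05 and 1e-06).

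Ctsl, a cysteine protease of the same compartment, fell with BafA1 (log2 fold change -0.69 in Trem2 KO and -0.73 in WT cells, edgeR adjusted p = 0.00019 and 7.9e-05). Cathepsin S (Ctss), the protease that makes the last cuts in the invariant chain in macrophages and dendritic cells, rose with BafA1 in Trem2 KO cells (0.32, edgeR adjusted p = 0.0026) and had a log2 fold change of 0.09 in WT cells. Ctsb rose with BafA1 in WT cells (0.37, edgeR adjusted p = 0.00063). With DMSO, Trem2 KO cells were higher than WT cells in Ctsb (0.48, edgeR adjusted p = 7.8e-05) and Lgmn (0.43, edgeR adjusted p = 0.00011) and lower in Ifi30, a lysosomal thiol reductase that unfolds antigens (-0.58, edgeR adjusted p = 0.0061). With BafA1, Trem2 KO cells were higher in Lgmn, Marchf1 and Ctss (0.51, 0.89 and 0.28, edgeR adjusted p = 4.9e-05, 0.004 and 0.012) and lower in Ifi30 (-0.66, edgeR adjusted p = 0.0028). In the difference of responses 0 of the 9 passed, where 8.81% of all genes tested did. Sppl2a, a protease for the membrane stub of the invariant chain, passed in 0 contrasts.

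Of 11 genes for the DNA-binding and co-activator proteins that CIITA works with, BafA1 lowered 5 and raised 0 in Trem2 KO cells, and lowered 4 and raised 1 in WT cells. These counts are near the share called in either direction among all genes tested, 40.6% in Trem2 KO and 46.9% in WT cells. The acetyltransferase Ep300 fell in both (log2 fold change -0.58 in Trem2 KO and -0.55 in WT cells, edgeR adjusted p = 1.7e-06 and 2.1e-06), as did Nfya, a subunit of the Y box factor (-0.59 and -0.71, edgeR adjusted p = 0.00098 and 9.5e-05), and Creb1 (-0.35 and -0.54, edgeR adjusted p = 0.0012 and 4.6e-06). Crebbp fell in Trem2 KO cells (-0.43, edgeR adjusted p = 0.00011), and Atf1 rose in WT cells (0.27, edgeR adjusted p = 0.0092). With DMSO, Crebbp and Atf1 were higher in Trem2 KO than in WT cells (0.27 and 0.29, edgeR adjusted p = 0.01 and 0.011). With BafA1, 0 of the 11 differed between the genotypes by edgeR, where 26.7% of all genes tested did. The RFX subunits Rfx5, Rfxap and Rfxank, which define the X box complex, passed in 0 of the 5 contrasts, with log2 fold changes of -0.24 to 0.10 across the 4 comparisons of groups.

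Among the 11 tested genes of the interferon gamma signal and Ciita regulation, of 12 listed, 2 were higher and 1 was lower in Trem2 KO than in WT cells with DMSO. The shares over all genes tested were 13.8% higher and 16.5% lower. Irf8, a macrophage lineage factor, was higher in Trem2 KO cells with DMSO (0.48, edgeR adjusted p = 3.4e-05), as was the kinase Jak1 (0.19, edgeR adjusted p = 0.047). Ifngr1, the ligand-binding receptor chain, was lower in Trem2 KO than in WT cells with DMSO (-0.45, edgeR adjusted p = 0.00083) and with BafA1 (-0.29, edgeR adjusted p = 0.038).

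Irf1, which acts on the interferon-responsive Ciita promoter, rose with BafA1 while most called genes of this list fell. It was at 114, 101 and 106 CPM in Trem2 KO cells with BafA1 and 71.6, 69.7 and 78.0 CPM in Trem2 KO cells with DMSO, and at 192, 178 and 126 CPM in WT cells with BafA1 and 75.6, 78.7 and 82.0 CPM in WT cells with DMSO. The log2 fold changes were 0.55 in Trem2 KO and 1.07 in WT cells (edgeR adjusted p = 0.00063 and 4.5e-08), and with BafA1 it was lower in Trem2 KO cells (-0.63, edgeR adjusted p = 0.00024). BafA1 lowered 4 of the list's 11 tested genes in each genotype, and raised 1 in Trem2 KO and 3 in WT cells. The share called in either direction among all genes tested was 40.6% in Trem2 KO and 46.9% in WT cells. By direction, it was 20.7% lower and 19.8% higher in Trem2 KO cells, and 25.3% lower and 21.6% higher in WT cells. Ifngr1 fell by 0.93 in Trem2 KO and by 1.09 in WT cells (log2 fold changes -0.93 and -1.09, edgeR adjusted p = 1.3e-07 and 3e-09). Irf2 fell too (-0.69 and -0.94, edgeR adjusted p = 1.8e-06 and 7.1e-09), and so did Prdm1, a repressor of Ciita in B cells (-0.84 and -0.55, edgeR adjusted p = 7.3e-06 and 0.00053), and Irf8 (-0.70 and -0.36, edgeR adjusted p = 1.5e-07 and 0.0004). Jak1 and Jak2 rose with BafA1 in WT cells (0.40 and 0.32, edgeR adjusted p = 8.3e-05 and 0.036). In the difference of responses 1 of the 11 passed, Jak1 (-0.35, edgeR adjusted p = 0.037), where 8.81% of all genes tested did.

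**Figure D4:**
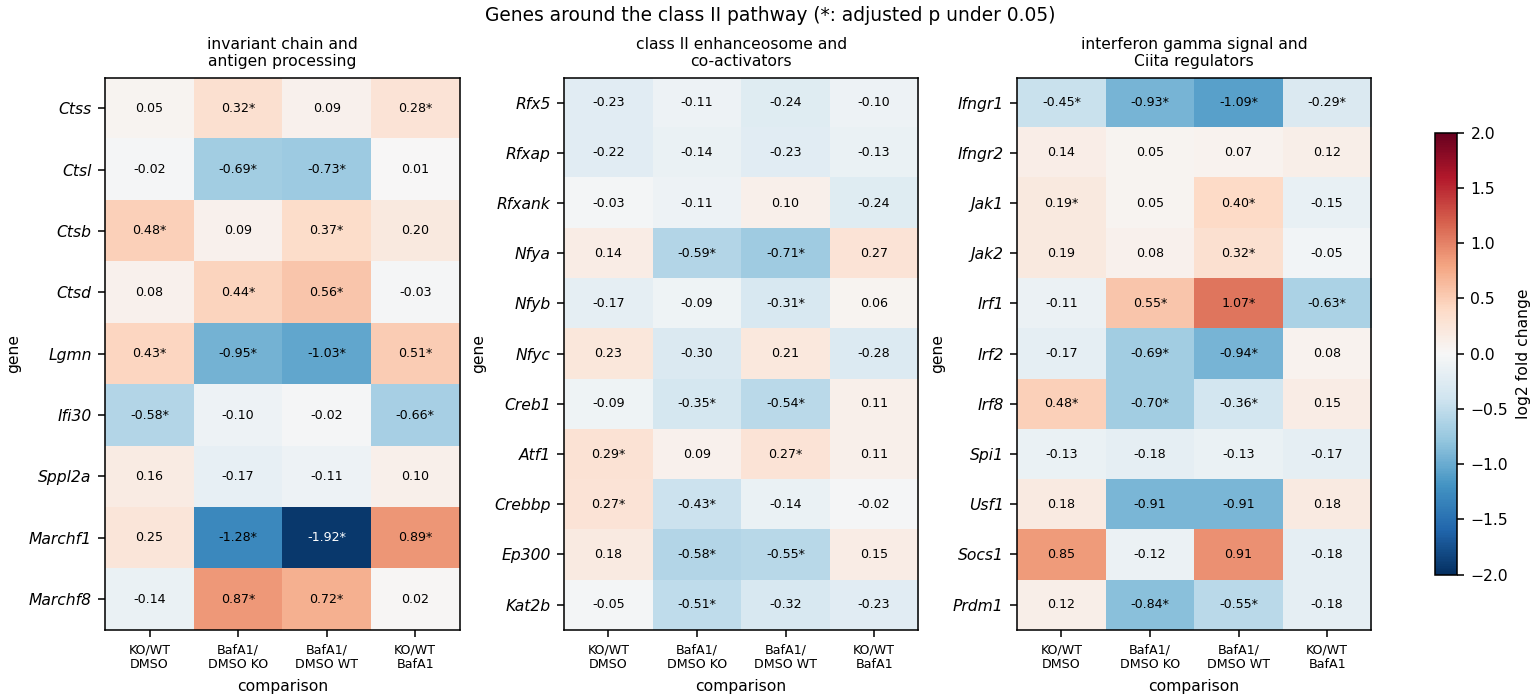
Log2 fold changes (colour and printed value) of genes for antigen processing, the class II enhanceosome and the interferon gamma signal in the 4 comparisons of groups, with an asterisk for edgeR adjusted p under 0.05. Irf8 is higher in Trem2 KO cells with DMSO and lower with BafA1, Irf1 rises with BafA1, Lgmn and Marchf1 fall with it, and the 3 RFX genes carry no asterisk.

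Some other cells of the marrow also express class II genes, and markers of several other cell types, whether or not they express them, were counted in each library. Monocyte markers (6 genes) summed to 7.01 to 11.8 CPM in Trem2 KO cells with BafA1, 115 to 161 CPM in Trem2 KO cells with DMSO, 2.35 to 3.996 CPM in WT cells with BafA1 and 70.4 to 82.2 CPM in WT cells with DMSO. With DMSO, 4 of their 5 tested genes were higher in Trem2 KO than in WT cells, among them F13a1, Chil3 and Ly6c2 (log2 fold changes 4.38, 2.09 and 2.58, edgeR adjusted p = 2.2e-08, 2.5e-08 and 2.8e-07). The remaining tested gene, Ccr2, averaged 67.3 CPM in Trem2 KO and 63.8 CPM in WT cells with DMSO. Ccr2 made up most of the sum in WT cells with DMSO, and averaged 1.34 CPM in WT cells with BafA1. BafA1 lowered 5 of the 5 in Trem2 KO and 4 of the 5 in WT cells, Ccr2 and Chil3 in each (-4.91 and -3.75 in Trem2 KO cells, -5.53 and -3.16 in WT cells, edgeR adjusted p = 8.6e-12, 4.2e-11, 9.4e-13 and 9.3e-08). Granulocyte markers (8 genes) summed to 67.0 to 119 CPM in Trem2 KO cells with BafA1, 375 to 654 CPM in Trem2 KO cells with DMSO, 44.5 to 56.3 CPM in WT cells with BafA1 and 145 to 164 CPM in WT cells with DMSO. Of their 5 tested genes 5 were higher in Trem2 KO than in WT cells with DMSO, among them S100a9, S100a8 and Ngp (1.96, 1.45 and 1.87, edgeR adjusted p = 2.3e-08, 6.8e-08 and 6.9e-07), and 5 were lower with BafA1 in each genotype. Among all genes tested, 13.8% were higher in Trem2 KO than in WT cells with DMSO. BafA1 lowered 20.7% of all genes in Trem2 KO and 25.3% in WT cells. Both sets of markers, taken as sums, moved with the class II chains in Trem2 KO cells and also fell with BafA1 in WT cells, where the chains did not pass. Their part in the result was not tested.

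Dendritic cell markers (10 genes) summed to 175 to 201 CPM in Trem2 KO cells with BafA1, 177 to 186 CPM in Trem2 KO cells with DMSO, 125 to 157 CPM in WT cells with BafA1 and 108 to 111 CPM in WT cells with DMSO, nearly all of it Bst2, an interferon-induced gene of many cell types. The 9 without Bst2, a list made after the values were seen, summed to 2.80 to 7.21 CPM, 11.3 to 15.7 CPM, 1.68 to 2.09 CPM and 2.67 to 4.91 CPM in the same order of groups. The Trem2 KO libraries with DMSO were highest here, as for the class II chains. Unlike the chains, this sum was lower in every WT library with BafA1 than in every WT library with DMSO. Ccr7, the chemokine receptor of migrating dendritic cells, was at 3.93, 6.68 and 5.09 CPM in Trem2 KO cells with DMSO, against 0.85, 1.01 and 0.15 CPM in WT cells with DMSO (log2 fold change 3.00, edgeR adjusted p = 9.2e-05). With BafA1, Ccr7 was at 2.10, 4.61 and 2.08 CPM in Trem2 KO cells and 0.17, 0.45 and 1.04 CPM in WT cells. Siglech, of plasmacytoid dendritic cells, was also higher in Trem2 KO cells with DMSO (1.50, edgeR adjusted p = 0.023), as was Bst2 (0.67, edgeR adjusted p = 3.4e-06). The defining markers Flt3, Zbtb46, Xcr1 and Clec9a averaged under 1 CPM in every group, with Xcr1 and Clec9a at 0 in the 3 WT libraries with BafA1 and Xcr1 also in the 3 with DMSO. B cell markers (8 genes) summed to 10.4 to 19.2 CPM in Trem2 KO cells with BafA1, 15.3 to 17.1 CPM in Trem2 KO cells with DMSO, 9.06 to 11.5 CPM in WT cells with BafA1 and 10.9 to 12.8 CPM in WT cells with DMSO. T and NK cell markers (7 genes) summed to 0.40 to 1.54 CPM, 2.48 to 4.39 CPM, 1.20 to 1.85 CPM and 2.08 to 2.78 CPM in that order. Of the B cell markers 2 were tested, Cd22 and Ighm. Ighm averaged 0.28 CPM in Trem2 KO cells with BafA1, 3.83 CPM in Trem2 KO cells with DMSO, 0.79 CPM in WT cells with BafA1 and 6.27 CPM in WT cells with DMSO. It was lower with BafA1 in both genotypes (-3.56 in Trem2 KO and -2.99 in WT cells, edgeR adjusted p = 5.4e-06 and 6.3e-07). Its log2 fold change for Trem2 KO over WT cells was -0.70 with DMSO and -1.28 with BafA1 (edgeR adjusted p = 0.082 and 0.16). Cd22 went the other way: it was called higher with BafA1 in WT cells, and did not pass in Trem2 KO cells. It averaged 8.66 CPM in WT cells with BafA1 and 3.95 CPM in WT cells with DMSO. In Trem2 KO cells it averaged 12.99 CPM with BafA1 and 10.09 CPM with DMSO. Cd22 was higher in Trem2 KO than in WT cells with DMSO (1.32, edgeR adjusted p = 0.0007) and with BafA1 (0.62, edgeR adjusted p = 0.044). The part of these cells in the class II result was not tested.

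Of the 8 macrophage markers BafA1 lowered 7 in Trem2 KO and 7 in WT cells, where 20.7% and 25.3% of all genes tested were lower. The smallest p-values in Trem2 KO cells were those of Fcgr1, Mertk and Adgre1 (-3.84, -1.64 and -1.24, edgeR adjusted p = 4.5e-13, 6.1e-11 and 4.3e-10). In WT cells the smallest p-values were those of Fcgr1, Mertk and Itgam (-3.97, -1.77 and -1.50, edgeR adjusted p = 3.4e-13, 2.7e-11 and 1.4e-10), and Cd68 rose (0.44, edgeR adjusted p = 2.2e-05). With DMSO, 3 were higher in Trem2 KO than in WT cells, Mertk, Fcgr1 and Cd68 (0.93, 0.56 and 0.22, edgeR adjusted p = 3e-07, 0.002 and 0.023), and 2 were lower, Itgam and Csf1r (-1.35 and -0.23, edgeR adjusted p = 3.2e-09 and 0.042). The shares over all genes tested were 13.8% higher and 16.5% lower.

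**Figure D5:**
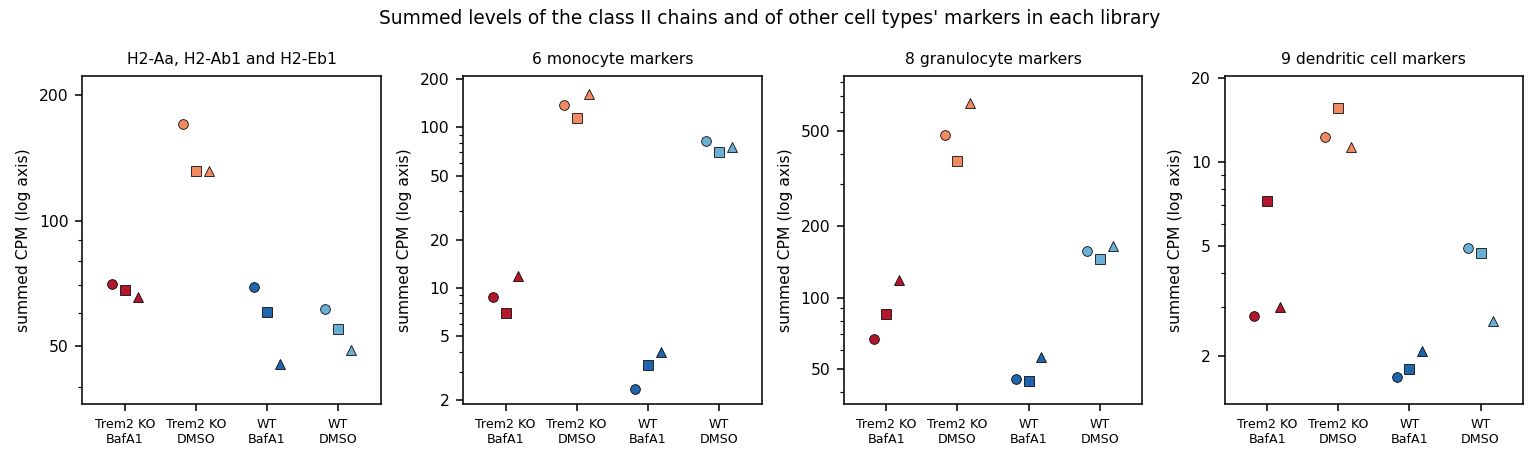
Summed CPM on log axes of the 3 class II chains and of markers of monocytes (6), granulocytes (8) and dendritic cells (9, without Bst2) in each library, with circles, squares and triangles for replicates 1, 2 and 3. The Trem2 KO libraries with DMSO stand highest in all 4 panels. The monocyte, granulocyte and dendritic cell sums are lower with BafA1 in WT cells, where the sums of the chains overlap.

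The genes whose profile over the 12 libraries was most like that of H2-Aa, H2-Ab1, H2-Eb1 and Cd74 together were taken from 6595 candidates with at least 20 CPM in their highest group. Predicted genes were left out of this search. The most alike were Tmem250-ps (Pearson r = 0.96), Ncoa4 (0.93), Acp2 (0.92), Gltp (0.92), mt-Rnr1 (0.92), Slc16a6 (0.91), Cmklr1 (0.91) and Rxra (0.91). Ncoa4, which carries ferritin to the lysosome, averaged 193 CPM in Trem2 KO cells with BafA1, 272 CPM in Trem2 KO cells with DMSO, 166 CPM in WT cells with BafA1 and 174 CPM in WT cells with DMSO. Cmklr1, the chemerin receptor, averaged 12.7 CPM in Trem2 KO cells with BafA1, 27.4 CPM in Trem2 KO cells with DMSO, 8.43 CPM in WT cells with BafA1 and 12.2 CPM in WT cells with DMSO. All 8 were highest in Trem2 KO cells with DMSO, which the search for likeness favours.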

How the data were processed

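RNA was measured in 12 BMDM libraries, 4 groups of 3, with a 3′ mRNA kit that carries molecular identifiers, per the labels' protocols. Per the submitters' processing notes, Salmon and GRCm39 were used, with no Salmon version or annotation stated. The authors deposited estimated counts per gene, not normalized, of which 42.0% of the values above 0 were not whole (tolerance 1e-06), and they were rounded. The authors also deposited log2 CPM, which differed from recomputed values by at most 0.00045 and was not used for tests.

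The filter on low counts was filterByExpr, with 10 as its minimum count and 15 as its minimum total. The quasi-likelihood test of edgeR 4.0.16 (R 4.3.3) used TMM scaling and 1 fit of all 12 libraries with no block, and p-values were adjusted by Benjamini-Hochberg over 12052 genes at a threshold of 0.05. A standard error is the log2 fold change divided by the root of F, and intervals are 95%. CPM use TMM sizes, and log2 CPM for correlations a prior count of 2. Values are mean ± SD over 3 libraries. Replicates differed beyond sampling noise (chi-square 2.27 to 6.22 per degree of freedom). RNA integrity numbers were 9.7 to 9.9. Totals limit the precision of low genes such as Ciita.

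The members and the gene lists were chosen with earlier results of these data known. A gene left out of the interferon gamma list is not reported here. Named genes were the 7 members, the 3 with the smallest p in each direction per list and contrast (in the marker lists fewer are named), further list genes by role, and the 8 most alike. Alternatives covered scaling, filtering, DESeq2 1.42.0, limma-voom (limma 3.58.1), replicate blocks, fits on the compared libraries and each library left out. The sum of H2-DMb1 and H2-DMb2, and the dendritic list without Bst2, were added after seeing the data.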

Additional observations from a re-analysis of the deposited data

Results flagged for a closer look

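The response to BafA1 differed between Trem2 KO and WT cells for 3 of the 7 class II genes by edgeR's test of the difference itself. Among all genes tested, 8.81% had a difference that passed, and 3.93% a negative one. The difference of log2 responses, Trem2 KO minus WT, was -1.16 for H2-Aa, -0.98 for H2-Ab1 and -1.44 for H2-Eb1, with edgeR adjusted p = 0.0012, 0.013 and 8.7e-05. Each was lowered by BafA1 in Trem2 KO cells and had a log2 fold change between 0.05 and 0.14 in WT cells. The Trem2 KO libraries with DMSO, in which the 3 chains stood highest, enter this difference.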

How the results depend on the processing

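Counts of the 7 genes that passed were 5 for BafA1 in Trem2 KO cells under every setting run. For BafA1 in WT cells the count of 1 became 2 with no filter, with only the libraries compared, with a replicate block and with a replicate block within genotype, and was 1 to 2 with a library left out. For Trem2 KO against WT with BafA1 the count of 1 became 2 with upper-quartile factors and with limma-voom, and was 1 to 2 with a library left out. The added gene was H2-Eb1 with upper-quartile factors (edgeR adjusted p = 0.04) and without WT BafA1 replicate 1 (0.53, edgeR adjusted p = 0.022), and H2-DMa with limma-voom (-0.89, limma adjusted p = 0.041). With DMSO it was 3 to 4 and in the difference of responses 2 to 4. The second gene in WT cells was Cd74 (edgeR adjusted p = 0.04 with no filter, 0.038 with the libraries compared, 0.012 and 0.0083 with the blocks, 0.025 to 0.038 in 3 fits with a library left out), except without WT BafA1 replicate 3, where it was Ciita (1.11, edgeR adjusted p = 0.045).

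Of 779 member results under alternatives 752 kept direction and side of the threshold, 14 newly passed, 4 no longer passed and 9 reversed, of which 0 had passed before. Cd74 for Trem2 KO against WT with BafA1 was 0.0084 with upper-quartile factors. With a library left out, the lowest and highest values were -0.20 and 0.21 for it, -0.10 and 0.21 for H2-Aa in the same comparison, -0.052 and 0.23 for H2-Ab1 and -0.079 and 0.19 for H2-Eb1 with BafA1 in WT cells, and -0.15 and 0.00019 for H2-DMb1 with BafA1 in Trem2 KO cells. The cause was not tested. Same-numbered libraries correlated at -0.104 to 0.164 in their deviations from the group means, over comparisons within and between genotypes. For BafA1 against DMSO these values were 0.074, 0.164 and 0.116 in Trem2 KO cells, and -0.0051, 0.043 and 0.061 in WT cells. They do not settle whether same-numbered libraries of a genotype share a pool. In BafA1 against DMSO of Trem2 KO cells each library correlated best with its own number, a hint from the data and not the design. With the block within genotype the difference of responses passed for 4 genes, with Cd74 (-0.73, edgeR adjusted p = 0.039). Adding H2-DMb2 to H2-DMb1 left each count as it was. The scalings moved the median of all genes by at most 0.039.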

Other observations

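MHC class I presentation, the route that shows peptides made inside the cell to CD8 T cells, was tested through 13 genes. Of these BafA1 raised 6 and lowered 2 in Trem2 KO cells, and raised 8 and lowered 1 in WT cells. Among all genes tested, it raised 19.8% and lowered 20.7% in Trem2 KO cells, and raised 21.6% and lowered 25.3% in WT cells. H2-K1, a class I heavy chain, averaged 1651 ± 92.1 CPM in Trem2 KO cells with BafA1 and 1305 ± 96.8 CPM in Trem2 KO cells with DMSO, and 1503 ± 20.7 CPM in WT cells with BafA1 and 893 ± 57.0 CPM in WT cells with DMSO (SD, n = 3 each). It rose by a log2 fold change of 0.34 in Trem2 KO and 0.75 in WT cells (edgeR adjusted p = 0.00088 and 2.2e-08). Calr and Pdia3, chaperones of the peptide-loading complex, rose in each genotype (0.87 and 0.59 in Trem2 KO cells, 1.33 and 1.03 in WT cells, edgeR adjusted p = 4.2e-07, 5.7e-05, 3.2e-10 and 1.2e-08). The immunoproteasome subunit Psmb9 fell with BafA1 (-0.67 in Trem2 KO and -0.73 in WT cells, edgeR adjusted p = 9.4e-05 and 5.3e-05), as did the peptide transporter Tap1 in Trem2 KO cells (-0.41, edgeR adjusted p = 0.003). With DMSO 6 of the 13 were higher in Trem2 KO than in WT cells and 0 lower, among them H2-D1, B2m and H2-K1 (0.60, 0.57 and 0.55, edgeR adjusted p = 4.6e-07, 2.8e-06 and 6.3e-06). With BafA1 4 were higher, among them Psmb9, H2-D1 and B2m (0.65, 0.25 and 0.26, edgeR adjusted p = 0.00078, 0.009 and 0.012), and 4 lower, among them Tapbp, Pdia3 and Calr (-0.78, -0.52 and -0.52, edgeR adjusted p = 2.7e-06, 0.00045 and 0.00057). For Trem2 KO over WT cells, the shares over all genes tested were 13.8% higher and 16.5% lower with DMSO. With BafA1 they were 12.5% higher and 14.2% lower. Tapasin (Tapbp), which loads peptides on class I molecules, rose in WT cells (1.16, edgeR adjusted p = 7.7e-10), and its response was lower in Trem2 KO cells (difference -0.96, edgeR adjusted p = 9.7e-05).

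The ligands that accompany class II on the surface were low to moderate. Of the 6 tested of 7 listed, 3 were higher in Trem2 KO than in WT cells with DMSO, where 13.8% of all genes tested were higher. Cd274, the checkpoint ligand PD-L1, averaged 40.5 ± 4.27 CPM in Trem2 KO cells with BafA1, 26.9 ± 4.01 CPM in Trem2 KO cells with DMSO, 37.3 ± 3.42 CPM in WT cells with BafA1 and 9.17 ± 1.57 CPM in WT cells with DMSO (SD, n = 3 each). It rose with BafA1 in Trem2 KO cells (log2 fold change 0.59, edgeR adjusted p = 0.0009) and in WT cells (2.02, edgeR adjusted p = 1.4e-10), and the responses differed (-1.44, edgeR adjusted p = 9.7e-05). Cd86, a costimulator of T cells, was higher in Trem2 KO cells with DMSO (1.80, edgeR adjusted p = 1.4e-05), rose with BafA1 in WT cells (1.05, edgeR adjusted p = 0.0033), and its responses differed (-1.28, edgeR adjusted p = 0.027). Cd83, which protects class II molecules from Marchf1, was higher in Trem2 KO cells with DMSO (0.86, edgeR adjusted p = 9.2e-06) and with BafA1 (0.79, edgeR adjusted p = 7.4e-05). Cd40 rose with BafA1 in WT cells (0.73, edgeR adjusted p = 0.012).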
